A study of Mus musculus with 9 samples.

Results

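The Notch genes were examined in a list of chromatin regions that were accessible in the wild-type mouse embryo at embryonic day 8.75. The study addressed how chromatin opening in the forming heart depends on the transcription factor Isl1 and on the remodeling ATPase Brg1. It used ATAC-Seq, in which the Tn5 transposase cuts and tags DNA that is not protected by nucleosomes. The tissue was the heart together with the pharyngeal mesoderm of embryos with 6 somites, and the 9 libraries comprised 3 wild-type, 3 Isl1-/- and 3 Isl1Cre+/-/ Brg1fl/fl libraries. Only the wild-type group (genotype label wt, no transgene or treatment named) entered the values below, as 1 list of regions that, by the methods of the study, were found in all 3 libraries, and the mutant libraries were not analysed here. Each region has a position on the mouse genome build mm9, an assigned gene and a distance from its center to the transcription start site (TSS) of that gene, but no height and no value per library. No value below therefore carries a replicate error, no test was run, and the read depth behind the list is unknown. Intervals are 95% Wilson intervals and cover counting error only. The dissected tissue holds several cell types, and the methods of the study speak of 3 wild-type embryos.

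The 10 genes were chosen by their symbol, namely the receptors Notch1, Notch2, Notch3 and Notch4, the ligands Jag1, Jag2, Dll1, Dll3 and Dll4, and the nuclear effector Rbpj. Of the 17164 distinct regions in the list, 15 were assigned to a member. They belonged to 5 of the 10 genes. Jag1 had 8 regions, Notch2 had 4, and Notch3, Jag2 and Rbpj had 1 each. Notch1, Notch4, Dll1, Dll3 and Dll4 had none.

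Notch signaling passes between touching cells. A Delta-like or Jagged ligand on 1 cell binds a Notch receptor on its neighbor, the receptor is cut by an ADAM metalloprotease and then by gamma-secretase, and the freed intracellular domain enters the nucleus, where it joins the DNA-binding protein Rbpj and a Mastermind coactivator to switch on targets such as the Hes and Hey genes. In the early embryo the pathway is known for its part in somite segmentation, in the endothelium and endocardium, and in the outflow tract of the heart, where Jag1 is a disease gene for outflow tract defects in humans.

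Sequences at the center of member regions are shown first, because they place the letters that Rbpj recognizes in DNA that was open in this tissue. The core of the Rbpj binding motif was searched as TGGGAA on either strand in the central 300 bp of each region. The 9 sequences below are the centers of the 5 regions that contain a TSS and of the 4 more distant regions that held the core. Each was read from the NCBIM37 assembly, the same build as mm9, on the strand of the gene, 5′ to 3′, and capitals mark the core in either orientation. The distance beside each name runs from the TSS to the center of the region, so that a printed piece need not hold the TSS itself. The pieces at Notch2 and Rbpj were shortened so as to leave out annotated exons, and a second core in the center of the Rbpj region lies in the part left out.
Jag1 at 6083 bp, chr2:136936023-136936322, minus strand: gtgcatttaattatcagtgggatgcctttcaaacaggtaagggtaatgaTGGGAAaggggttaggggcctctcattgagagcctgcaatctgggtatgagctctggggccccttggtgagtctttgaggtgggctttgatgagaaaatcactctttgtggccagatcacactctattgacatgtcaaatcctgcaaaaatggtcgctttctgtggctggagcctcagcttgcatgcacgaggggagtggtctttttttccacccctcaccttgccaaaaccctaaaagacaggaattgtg
Jag1 at -473 bp, chr2:136942580-136942879, minus strand: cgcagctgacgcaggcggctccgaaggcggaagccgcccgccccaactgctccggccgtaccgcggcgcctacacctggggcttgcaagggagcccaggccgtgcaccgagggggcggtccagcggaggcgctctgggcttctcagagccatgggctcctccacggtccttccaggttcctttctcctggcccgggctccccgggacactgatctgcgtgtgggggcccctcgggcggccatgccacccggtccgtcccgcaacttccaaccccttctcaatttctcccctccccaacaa
Jag1 at -36827 bp, chr2:136978934-136979233, minus strand: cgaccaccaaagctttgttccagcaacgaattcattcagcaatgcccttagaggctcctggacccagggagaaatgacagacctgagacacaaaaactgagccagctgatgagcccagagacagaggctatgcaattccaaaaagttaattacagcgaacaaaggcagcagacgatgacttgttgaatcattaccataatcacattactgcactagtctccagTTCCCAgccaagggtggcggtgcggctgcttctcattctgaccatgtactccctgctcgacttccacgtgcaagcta
Jag1 at -58893 bp, chr2:137001000-137001299, minus strand: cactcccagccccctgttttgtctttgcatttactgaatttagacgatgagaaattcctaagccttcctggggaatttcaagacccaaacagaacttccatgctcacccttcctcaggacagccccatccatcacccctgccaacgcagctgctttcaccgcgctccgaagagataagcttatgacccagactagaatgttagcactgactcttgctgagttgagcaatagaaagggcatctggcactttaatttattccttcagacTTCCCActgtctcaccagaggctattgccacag
Jag2 at -480 bp, chr12:114168036-114168335, minus strand: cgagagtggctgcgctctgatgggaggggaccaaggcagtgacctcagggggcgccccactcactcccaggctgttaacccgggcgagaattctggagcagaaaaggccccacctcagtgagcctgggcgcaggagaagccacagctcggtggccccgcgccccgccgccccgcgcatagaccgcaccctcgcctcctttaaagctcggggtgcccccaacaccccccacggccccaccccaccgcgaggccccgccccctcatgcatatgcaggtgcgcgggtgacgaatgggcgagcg
Notch2 at 21 bp, chr3:97817332-97817460, plus strand: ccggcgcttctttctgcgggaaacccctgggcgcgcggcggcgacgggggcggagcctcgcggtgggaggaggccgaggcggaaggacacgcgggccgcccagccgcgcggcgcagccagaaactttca
Notch2 at 12733 bp, chr3:97830045-97830344, plus strand: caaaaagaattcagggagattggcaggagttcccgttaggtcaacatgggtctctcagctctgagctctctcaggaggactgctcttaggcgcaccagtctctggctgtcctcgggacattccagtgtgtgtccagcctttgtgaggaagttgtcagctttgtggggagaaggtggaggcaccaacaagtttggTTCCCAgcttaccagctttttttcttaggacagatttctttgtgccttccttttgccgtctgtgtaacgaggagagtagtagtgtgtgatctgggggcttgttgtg
Notch3 at 462 bp, chr17:32303185-32303484, minus strand: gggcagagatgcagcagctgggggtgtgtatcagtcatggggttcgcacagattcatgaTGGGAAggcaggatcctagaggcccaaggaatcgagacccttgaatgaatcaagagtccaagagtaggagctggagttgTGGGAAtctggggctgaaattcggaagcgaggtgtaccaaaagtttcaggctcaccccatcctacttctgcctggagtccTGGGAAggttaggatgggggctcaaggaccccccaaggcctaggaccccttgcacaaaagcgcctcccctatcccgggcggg
Rbpj at -137 bp, chr5:53981299-53981453, plus strand: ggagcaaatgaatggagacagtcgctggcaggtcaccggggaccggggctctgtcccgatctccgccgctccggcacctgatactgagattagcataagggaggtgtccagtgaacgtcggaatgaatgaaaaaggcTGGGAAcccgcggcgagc

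Of the 15 regions, 6 held the core in their central 300 bp (40%, interval 19.8 to 64.3%), compared with 3953 of all 17164 regions (23.0%). By distance, it was present in 2 of the 5 member regions within 1 kb of the TSS, compared with 19.0% of the 9083 such regions in the list. Farther away it was present in 4 of 10, compared with 27.6% of 8081. The intervals for the members, 11.8 to 76.9% and 16.8 to 68.7%, include the values over all regions, so a difference was not detectable with this number of regions. They treat regions as independent, although Jag1 alone had 8 of the 15. The 10 distant regions belonged to only Jag1 (7) and Notch2 (3), so the distant share describes mainly Jag1. The same limit holds for the other motif shares of the members. A longer form, GTGGGAA, stood in the center of 2 member regions, the one at Notch3 and the Jag1 region at -58893 bp, and in 5.97% of all regions. A match is a description of letters and not evidence of binding.

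The Notch3 region held 3 copies of the core in its center, at bases 60, 139 and 219 of the printed sequence, all in the same orientation and 79 and 80 bases apart. At least 3 copies were present in the center of 34 of the 9083 regions within 1 kb of a TSS (0.374%). Over its whole width the Notch3 region held 4 copies, at 16, 374, 454 and 534 bp downstream of the TSS, and 471 regions of that class (5.19%) held at least 4. Rbpj, whose protein binds this motif, had 6 copies over its region, at -1020, -810, -342, -146, -62 and 406 bp from the TSS, a number reached by 51 regions of that class (0.561%), in a region wider than 99.3% of them. The Jag1 region at the TSS held 2 copies, at -848 and -772 bp and pointing toward each other, and those of Jag2 and Notch2 held 1 copy each, at -896 and 432 bp. Over their whole width, 35.1% of regions in the class held at least 2 copies and 68.5% at least 1. Per kb of sequence, the 5 regions at a TSS held 1.52 copies, compared with 0.90 over all regions of that class. Most of their 14 copies came from Rbpj (6) and Notch3 (4), so the pooled density does not describe the other regions. It carries no interval and was not tested.

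**Figure D1:**
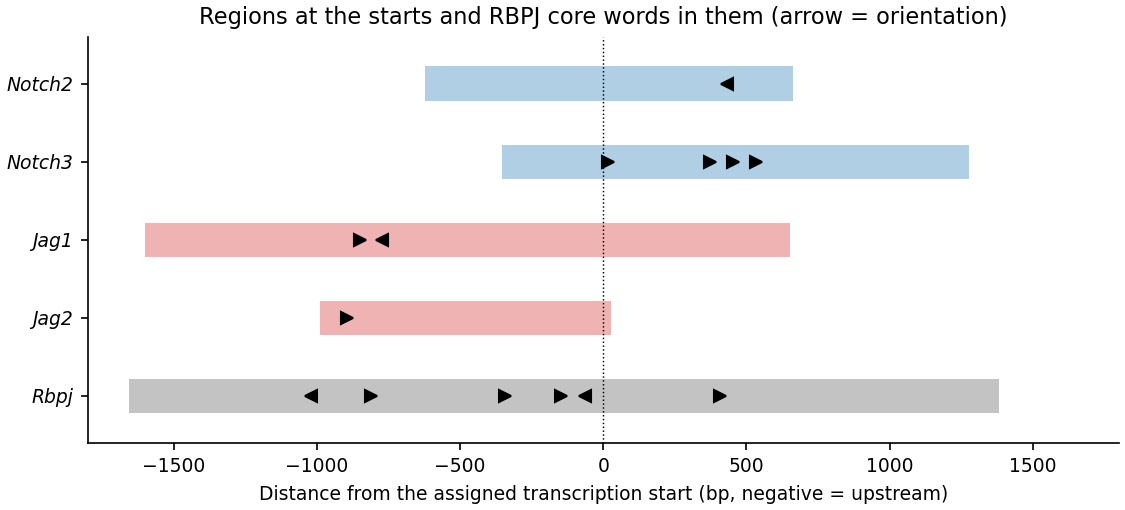
Extent of the 5 member regions that lie at a TSS (shaded bars, bp from the assigned TSS at 0, negative is upstream), with each TGGGAA core in them as an arrow that points in its orientation. The 3 evenly spaced copies at Notch3 lie downstream of the TSS, and the Jag2 bar ends 28 bp past its TSS.

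The first question was which of the receptors, ligands and the effector had an assigned region in the list. Of the 10 members, 5 had an assigned region (50%, interval 23.7 to 76.3%), compared with 49.3% of 21027 protein-coding genes, so the members were listed about as often as other genes. A region whose center was within 1 kb of the TSS was assigned to the same 5 of 10 (50%), compared with 40.6% of coding genes. A region beyond 1 kb was assigned to 2 of 10 (20%), compared with 18.7%, and the 2 genes, Jag1 and Notch2, were the same that also had both kinds, which 10.0% of coding genes had. No member had a distant region without one at its TSS. Of the 21027 coding genes, 3931 had a distant region and 2110 had both kinds, so few genes had distant regions alone. The absence among 10 members is therefore not read as a trait of them.

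The receptors, single-pass proteins that carry the signal from the membrane to the nucleus, fell into 2 with and 2 without a region. Notch2 (chromosome 3, 97817461 to 97954290, plus strand) had a region of 1287 bp centered 21 bp downstream of its TSS (97816839 to 97818125) that reached 622 bp upstream and 664 bp downstream, close to the medians of 610 and 662 bp over all regions within 1 kb. Its midpoint lay in exon 1. The other 3 regions of Notch2 all lay in intron 1, which is 33956 bp long, at 11110, 12733 and 29752 bp downstream of the TSS. They were 893, 904 and 889 bp wide, a spread of 15 bp. Such widths were the most frequent beyond 1 kb, with 15.95% of regions at 800 to 900 bp and 14.87% at 900 to 1000 bp. The first pair in intron 1 was separated by 725 bp (97828125 to 97829017 and 97829743 to 97830646), and the third region lay at 97846769 to 97847657. The 4 regions together spanned 30.8 kb, from 622 bp upstream of the TSS into a gene that is 136830 bp long. At least 4 regions were assigned to 609 of the 11541 genes with a region, and more than 4 to 301.

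Notch3 (chromosome 17, 32257765 to 32303825, minus strand), the receptor best known from vascular smooth muscle, had 1 region of 1627 bp (32302522 to 32304148). It was shifted into the gene, with 352 bp upstream of the assigned TSS and 1276 bp downstream. Its center lay 462 bp from that TSS and 490 bp from the GENCODE start. The midpoint lay in intron 1, which is 2431 bp long. The region was written 2 times in the list. No other member region was repeated.

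No region was assigned to Notch1 (chromosome 2, 26313423 to 26372183, minus strand), the receptor of the endocardium and of many progenitor cells, and none overlapped its 58761 bp. The region nearest to any of its 4 annotated coding starts was 57138 bp away, at the TSS of the neighboring gene Sec16a (26300279 to 26302204, 1926 bp wide). The gene on the other side, Egfl7, had no region within 1 kb of its start. Notch4 (chromosome 17, 34701213 to 34725448, plus strand), a receptor of endothelial cells, had none either, and its nearest region lay 38928 bp from the start, at Rnf5 (34740141 to 34741710).

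Among the ligands, the Jagged genes had regions and the Delta-like genes had none. Jag1 (chromosome 2, 136907192 to 136942380, minus strand) was among the 54 genes (0.468% of those with a region) that had 8 or more, and 35 genes had more than Jag1. The region at its TSS was 2252 bp wide (136941604 to 136943855), wider than 94.3% of regions within 1 kb. It extended 1599 bp upstream and 653 bp downstream of the assigned TSS. Its center lay at -473 bp from that TSS but at -349 bp from the GENCODE start, so the gene coordinates above give other extents. Another 7 regions lay farther away, 5 upstream and 2 downstream.

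Downstream of the Jag1 TSS, a region of 1521 bp (136935413 to 136936933) lay at 6083 bp, in intron 2, and held 5 copies of the TGGGAA core over its whole width, a number that 97 of 8081 distant regions reached (1.2%). Its width was above that of 92.0% of distant regions. A region of 1260 bp (136899405 to 136900664) lay at 42222 bp, beyond the 3′ end of the gene. Upstream, all in intergenic sequence, the regions lay at -36827 bp (886 bp wide), -58893 bp (796 bp), -99208 bp (828 bp), -113565 bp (1666 bp, wider than 94.6% of distant regions) and -127709 bp (920 bp). The 3 most distant upstream regions were separated by 13110 and 12851 bp, whereas the gaps from the TSS region outward to them were 34785, 21225 and 39503 bp. Beyond the last region no other was listed for 460029 bp on that side, and beyond the downstream one for 218253 bp on the other. The 8 regions spanned 171.0 kb (136899405 to 137070425), of which they covered 5.92%.

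Jag2 (chromosome 12, 114146801 to 114167706, minus strand), the other Jagged ligand, had 1 region of 1017 bp (114167678 to 114168694). It lay almost wholly upstream, with 988 bp before the TSS and 28 bp after it. Its width was above that of 18.5% of regions within 1 kb, the lowest percentile of the 5 members, and it was also the richest in GC, at 70.7%, and in CpG dinucleotides, at 10.91 per 100 bp.

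**Figure D2:**
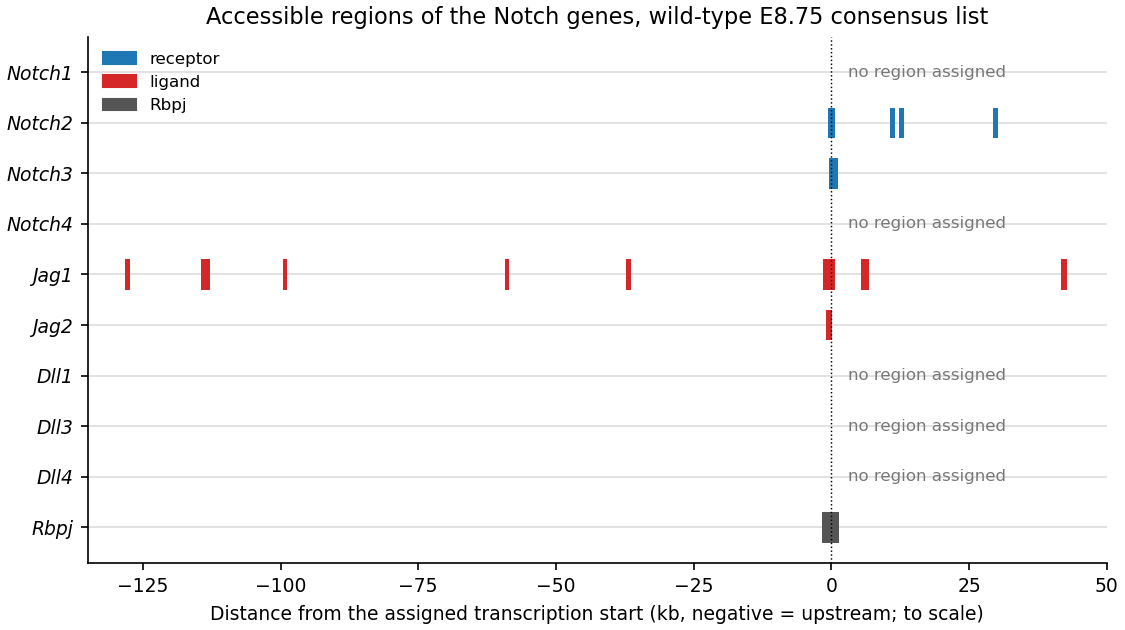
Position of all 15 member regions relative to the assigned TSS (kb, negative is upstream, bars drawn to scale), 1 line per gene, with receptors in blue, ligands in red and Rbpj in gray. The 7 distant regions of Jag1 lie on both sides of its TSS, the 3 of Notch2 lie downstream only, and 5 genes have no region.

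Dll1, Dll3 and Dll4 encode the Delta-like proteins. Dll1 and Dll3 are known from the presomitic mesoderm, and Dll4 from arterial endothelium and endocardium. For Dll1 (chromosome 17, 15504318 to 15513836, minus strand) the nearest region was 19794 bp from its coding start, at the TSS of Fam120b (15532734 to 15533752). For Dll3 (chromosome 7, 29076673 to 29087257, minus strand) it was 9435 bp away, at the TSS of Timm50 (29096692 to 29097666). For Dll4 (chromosome 2, 119151520 to 119161698, plus strand) it was 20349 bp upstream (119130275 to 119131171, 897 bp wide), and was assigned to Vps18, whose TSS was closer. None of the 3 gene bodies overlapped a region, while at least 1 of the neighboring coding genes on either side of each had a region within 1 kb of its start. Absence from a list that requires a peak in all 3 libraries does not show closed chromatin, and in a mixed tissue a site open in few cells and a site weakly open in many cannot be told apart.

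Rbpj (chromosome 5, 53947018 to 54048684, plus strand), the DNA-binding protein through which all 4 receptors act, had 1 region, of 3038 bp (53979930 to 53982967). It was the widest of the 15, and only 66 of the 9083 regions within 1 kb of a TSS were wider. It reached 1656 bp upstream and 1382 bp downstream of the assigned TSS, against 95th percentiles of 1245 and 1403 bp. Rbpj had 3 annotated coding starts, and 2 starts of its annotated transcripts, coding or not, lay inside the region. The start of the gene, at 53947018, was not covered by any region, and the region lies in intron 1 of the transcript that begins there.

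Widths of the members were set beside those of all regions of the same distance class, since width is the only size in the list. The 5 regions at a TSS were 1017 bp wide at Jag2, 1287 bp at Notch2, 1627 bp at Notch3, 2252 bp at Jag1 and 3038 bp at Rbpj, so that the median was 1627 bp against 1294 bp over the class. The members thus ranged from the lower part of the distribution to its upper tail. The 10 distant regions were 796 to 1666 bp wide, and their median of 898.5 bp lay near the 950 bp of that class. Base composition also differed between the 2 classes. GC content was 61.5 to 70.7% at the TSS and 41.5 to 50.7% farther away, and CpG frequency was 5.78 to 10.91 and 0.60 to 1.80 per 100 bp. The medians over all regions were 58.1 and 47.5% GC, and 5.93 and 1.35 CpG per 100 bp, so the contrast was not particular to the members.

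**Figure D3:**
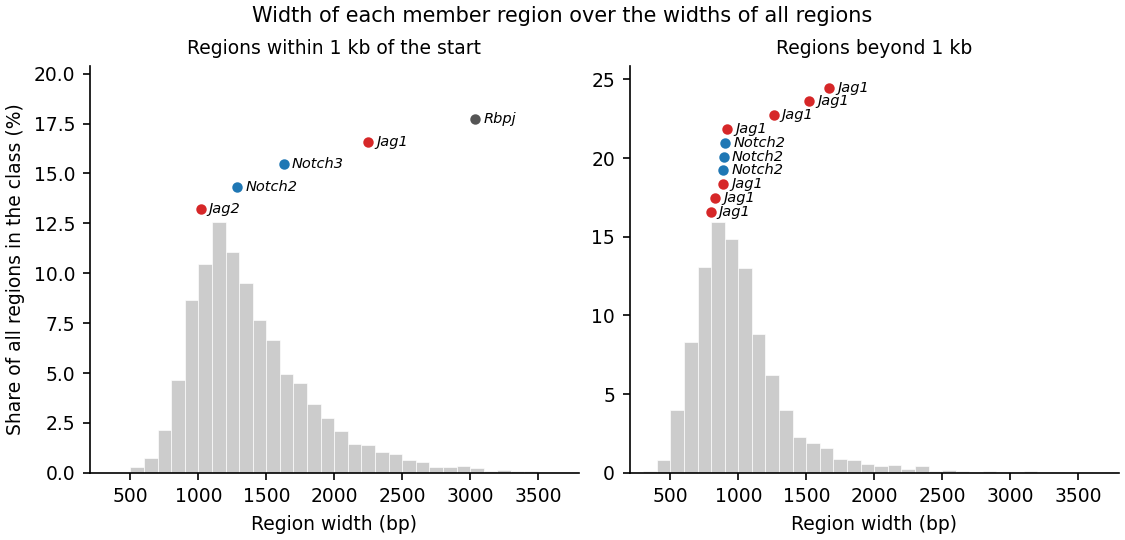
Width of each member region (points, in bp) above the distribution of widths over all regions of its class (gray bars, share of the class in %). The height of a point has no meaning. Rbpj and Jag1 lie in the upper tail within 1 kb, and the 3 Notch2 regions beyond 1 kb lie near the peak of that class.

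Promoter CpG content was compared next, because CpG-rich starts were more often accessible across the genome. Over 22232 coding genes of the GENCODE annotation, 43.9% had a region within 1 kb of a coding start, from 0.488% in the lowest decile of CpG frequency to 76.3% in the highest. CpG frequency within 500 bp of the start was 16.0 per 100 bp at Jag2, 13.1 at Rbpj, 10.5 at Notch2 and 9.6 at Jag1, all above the 5 members without a region. Notch3 was the exception among the listed members, at 5.1. Of the members without a region, Dll1 had 7.8, Notch1 7.7, Dll4 5.8, Dll3 4.6 and Notch4 1.2. In the deciles that hold Notch1 and Dll1, 71.4% of genes had a region at a start, in that of Dll4 and Notch3 66.0%, in that of Dll3 54.1%, and in that of Notch4 5.92%. The starts of Notch1 and Dll1 were thus richer in CpG than that of Notch3 and yet were not in the list.

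**Figure D4:**
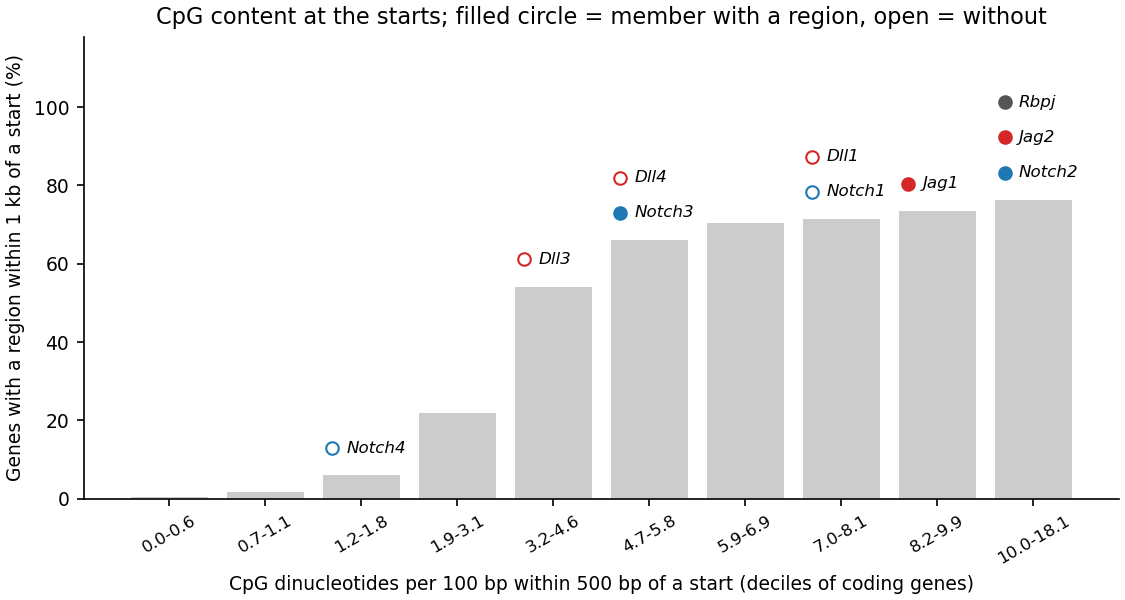
Share of coding genes with a region within 1 kb of a start (bars, %) in each decile of CpG frequency (per 100 bp within 500 bp of a start), with the members stacked above their decile at a height that has no meaning (receptors blue, ligands red, Rbpj gray), filled where a region was at the start and open where none was. Notch1 and Dll1 are open circles in a decile where 71.4% of genes had one.

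The number of regions was also set beside the size of the interval between the nearest coding starts on either side of a gene, since the mean number of regions per gene went from 0.308 where that interval was under 50 kb to 1.73 where it was 500 kb or more. Jag1 had the widest interval of the members, 1365.2 kb between Mkks and Btbd3. Of the 2334 coding genes with 500 kb or more, 42 (1.8%) had at least 8 regions. Notch2 had an interval of 259.6 kb. Of the 5455 genes between 150 and 500 kb, a class with a mean of 0.809 regions, 102 (1.87%) had 4 or more. Notch3, Rbpj and Dll1 fell in the same class, at 153.4, 440.6 and 354.6 kb. Notch3 and Rbpj had 1 region each and Dll1 had none, in a class where 55.5% of genes had a region. Notch1 and Dll4, both without a region, had intervals of 134.8 and 62.5 kb. In their class, 50 to 150 kb, 38.7% of genes had a region. The intervals of Jag2, Notch4 and Dll3 were the smallest, at 48.6, 42.2 and 20.9 kb, and under 50 kb 28.8% of genes had a region.

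Letters recognized by other factors of the early heart were searched in the same central 300 bp, with the share over the whole list, or over its regions of the same distance class, in parentheses. The T-box letters AGGTGT were present in 3 of the 5 regions at a TSS, those of Jag1, Notch3 and Rbpj (60%, interval 23.1 to 88.2%, compared with 8.16%), and in 0 of the 10 distant ones, which allows up to 30% by the rule of 3 counts (10.8%). Letters for GATA factors, AGATAA, were present only in the Jag1 region at -58893 bp among all 15 (8.55%). The TEAD letters GGAATG were in 3 of 15 (15.4%), namely the Rbpj region and the close pair in Notch2 intron 1. The ETS letters GGAAGT, which can share bases with the Rbpj core, were in 4 of 15 (21.0%). The letters CTAATG, a form of the Isl1 site, were in 0 of 15, which allows a share of up to 20% (3 counts of 15), against 6.85% of all regions. The letters of 6 factor families were searched in all, each on both strands, and no difference was tested.

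The rest of the pathway was read from a list of 44 genes grouped by role. A region was assigned to 32 of them (72.7%, interval 58.2 to 83.7%), compared with 49.3% of coding genes, and 24 had one within 1 kb of the TSS (54.5%), compared with 40.6%. Of the 10 genes for receptor cleavage, 8 had exactly 1 region, each at the TSS, including the ADAM proteases Adam10 (1268 bp) and Adam17 (1549 bp), and Psen2, Ncstn, Aph1a, Aph1b and Aph1c, which encode subunits of gamma-secretase. Furin, which cuts the receptor on its way to the surface, and Psenen had none. Of the genes that put sugars on the receptor, 1 of 5 had a region, the fringe gene Lfng, with none at Pofut1, Poglut1, Mfng and Rfng. The intervals for cleavage, 49.0 to 94.3%, and for glycosylation, 3.62 to 62.4%, both include the 49.3% of coding genes. Of the ligand-endocytosis genes, Mib1, Mib2 and Neurl1a had 1 region each and Neurl1b none.

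Nuclear cofactors had a region at 7 of 8 genes and receptor turnover genes at 8 of 9. Their intervals, 52.9 to 97.8% for cofactors and 56.5 to 98% for turnover, both lie above the 49.3% of coding genes. The intervals of all other pathway roles include that share. The roles hold few genes each, and no difference between roles was tested. The pathway list was written with earlier results of these data known. The intervals, for each role and for the whole list, allow neither for the number of roles nor for promoter CpG content. They are therefore not read as enrichment. The Mastermind coactivator genes were listed in different ways. Maml3 had the most regions of the list, 5, all beyond 1 kb at 2545 to 215921 bp downstream of its TSS. Maml2 had 3, also all beyond 1 kb, at -80401, -9720 and 19293 bp, and Maml1 had 1, 65 bp from its TSS. The acetyltransferase gene Kat2b had 2 regions, and Numbl, Dtx4 and Nrarp, which act on receptor stability, had 2 each. Ep300, a histone acetyltransferase of the Rbpj complex, and Dtx1 had none. Fbxw7, a ubiquitin ligase subunit for the cleaved receptor, had 1 region, at -1027 bp and so just beyond the limit of 1 kb. Among the non-canonical ligands, Dlk1 had 1 region at -29131 bp, and Dlk2 and Dner had none.

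Among the target genes, Hey1 and Hey2 had 1 region at the TSS and 3 upstream each, as far as -100022 bp at Hey1 and -226195 bp at Hey2. Hes1 and Hes5 had 1 distant region each, at 64212 and -14380 bp, and Heyl had none.

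**Figure D5:**
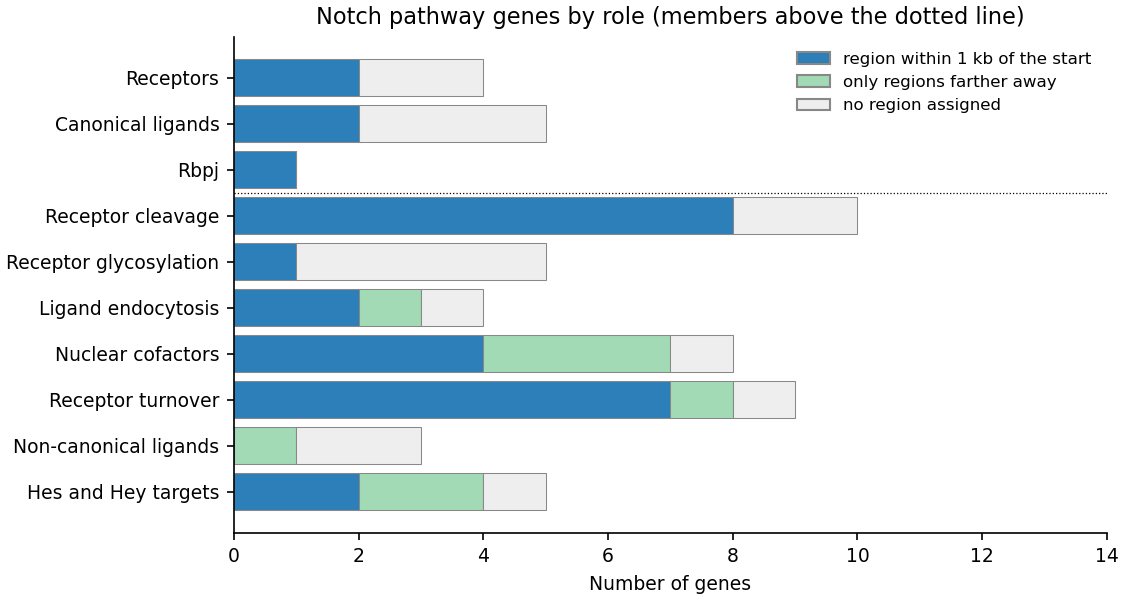
Number of Notch pathway genes in each role with a region within 1 kb of the TSS (blue), with only more distant regions (green) and with none (gray). Receptor cleavage has 8 of 10 genes in blue, and receptor glycosylation has 1 of 5.

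The tissue was checked against marker genes by the same measure. Of 9 genes of heart and pharyngeal mesoderm, 6 had a region, among them Isl1 with 9 and Mef2c with 5, and Nkx2-5, Tbx5 and Tbx1 had none. Of 6 endothelial genes, the cell type of Notch4 and Dll4, 4 had a region, and only that of Kdr was within 1 kb of the TSS. Of 5 genes of somites and presomitic mesoderm, the site of Dll1 and Dll3, only Ripply2 had one. The intervals of these shares, 35.4 to 87.9%, 30 to 90.3% and 3.62 to 62.4%, all include the 49.3% of coding genes, so the counts do not set these lists apart. Whether the makeup of the tissue bears on which Notch genes were listed was not tested.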

How the data were processed

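The authors prepared ATAC-Seq libraries from wild-type, Isl1-/- and Isl1Cre+/-/ Brg1fl/fl embryos. Per the methods of the study and the labels, reads were mapped to mm9 with bowtie2, proper pairs were kept, duplicates were removed with Picard 1.136, and peaks were called with MACS14 with a fixed shift size and no model. Blacklisted peaks were removed, and bedtools 2.15 intersect (-wa) kept regions that overlap across the replicates. Because overlap was enough, the edges of a listed region need not be those of every library. Widths, centers and the central motif windows rest on those edges. Region width can grow with depth, which is unknown. No offset for the Tn5 cut is stated. The deposited file gives start, end, distance to TSS, RefSeq transcript and symbol. The tool that assigned genes is not given in the sources used here for these regions.

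Rows with equal coordinates were counted once (17432 rows, 17164 regions). No column of values was left unmapped (0). Width was end minus start plus 1. Genes were matched to the RefSeq table of GRCm38.p6 for names and gene type only. Bases, starts, exons and neighbors came from NCBIM37 and its GENCODE annotation. No region ended beyond its chromosome (0), and deposited distances of the 15 regions differed by at most 131 bp from a GENCODE coding start. Coding genes are those with a curated transcript. For CpG, the highest value over a gene's coding starts was used. Motif search and nearest-start code was tested on made-up data with known answers.

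The members, gene lists and motifs were chosen with earlier results of these data known. All members are named, and of the pathway list the 5 genes with most regions (ties kept) and every gene without one, apart from results that are not reported here. Further pathway genes were named as examples after their values were seen. No test was made, because 1 list without replicates allows none. Python 3.11.15, pandas 2.3.3, numpy 2.4.6 and scipy 1.17.1 were used.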

Additional observations from a re-analysis of the deposited data

How the results depend on the processing

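No paired analysis was possible because 1 consensus list stands for the 3 wild-type libraries, and leaving out a library was not possible for the same reason. Of 17 recomputed values, 13 stayed within 1.5 times the value reported (for the motif share, within its interval) and 4 did not. With regions narrower than the median of 1123 bp removed, 7 of the 15 member regions were left, and Jag2 then had none. The median width was 1627 bp when each member counted once by its widest region, in place of 1017 bp over regions. The TGGGAA core was in 80% of the member regions over their whole width (66.3% of all regions) and the longer GTGGGAA in 13.3% of their centers (5.97% of all). Assigning regions to the nearest GENCODE coding start gave 6 members and 16 regions, by adding a region 127883 bp downstream of Dll1 that the list assigns to the noncoding Gm5091. Merging overlapping regions left 5 members with a region. Depth is unknown and sets how far widths and missing regions can be read.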
